A study of Mus musculus with 16 samples.

Results

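Claudins and the proteins that work beside them at the tight junction were followed across normal mouse skin and 2 genotypes of mouse skin carcinoma. The genes were 6 claudins (Cldn1, Cldn3, Cldn4, Cldn5, Cldn7 and Cldn8), Ocln, which encodes occludin, F11r, which encodes the junctional adhesion molecule JAM-A, and Tjp1, which encodes the scaffold ZO-1. They were found through the array annotation: a probeset, the set of short probes that measures a transcript, was kept where the annotation gave it 1 gene symbol and that symbol was among the 9. This gave 17 of the 45037 probesets tested and 9 of the 18193 genes with a probeset of their own.

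The samples were 4 control skins from wild type mice and 12 squamous cell carcinomas of the skin, all on the FVB background and each hybridised to 1 Affymetrix MOE430 2.0 array. Of the tumors, 7 came from k14Cre;p53loxP/loxP mice (p53 tumors) and 5 from k14Cre;p53loxP/loxP;pRbloxP/loxP mice (pRbp53 tumors), in which the keratin 14 promoter drives Cre in stratified epithelia. The p53 tumors comprised 3 poorly differentiated tumors (numbers 2, 4 and 5), 1 undifferentiated tumor (number 3), 1 spindle cell carcinoma (number 6) and 2 of mixed histology (numbers 1 and 7). Of the pRbp53 tumors, numbers 1, 2, 3 and 5 were spindle cell carcinomas and number 4 was mixed. The labels give no ages and do not say whether each tumor came from a separate mouse, so that p-values measure the spread between these arrays. The undifferentiated tumor and the 5 spindle cell carcinomas were treated as 1 group of 6.

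A tight junction is the seal nearest the free surface of an epithelial sheet. Claudins cross the membrane and pair with claudins of the next cell, and the mixture of claudins that a cell makes sets which ions pass between cells. Occludin lies in the same strands and JAM-A at the same junction. ZO-1 ties these proteins to the actin cytoskeleton on the inner face of the membrane. In the epidermis these junctions sit in the granular layer and form part of the barrier to water, and loss of claudin 1 in newborn mice is lethal through water loss. Claudin 5 is the exception among the 9 genes, since it is best known as the claudin of blood vessel endothelium.

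Promoters of all the genes with a RefSeq window, which Cldn8 lacked, were read for E-boxes. Repressors of the Snail and Zeb families, whose levels are given with the results by grade, bind E-boxes of this type. The motifs searched were CAGGTG and its reverse complement CACCTG, which together cover both strands, in the 250 bases before each RefSeq start (GRCm38.p6). Of 32851 such windows of all genes, 17.2% held at least 1 match. RefSeq windows were at hand for 8 of the genes (10 windows, since Cldn7 and Ocln have 2 starts each), and 4 windows, of Cldn4, F11r, Cldn7 and Ocln, held a match. The windows of Cldn1, Cldn3, Cldn5 and Tjp1 held none. The Cldn4 window (chr5:134946935-134947184, minus strand) and the F11r window (chr1:171437311-171437560, plus strand) are printed whole because they lie wholly before the gene, with the E-box in capitals.
Cldn4: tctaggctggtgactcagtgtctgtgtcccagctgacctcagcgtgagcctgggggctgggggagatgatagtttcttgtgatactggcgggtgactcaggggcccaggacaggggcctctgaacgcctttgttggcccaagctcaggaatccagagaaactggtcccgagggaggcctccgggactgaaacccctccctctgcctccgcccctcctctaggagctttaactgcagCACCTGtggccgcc
F11r: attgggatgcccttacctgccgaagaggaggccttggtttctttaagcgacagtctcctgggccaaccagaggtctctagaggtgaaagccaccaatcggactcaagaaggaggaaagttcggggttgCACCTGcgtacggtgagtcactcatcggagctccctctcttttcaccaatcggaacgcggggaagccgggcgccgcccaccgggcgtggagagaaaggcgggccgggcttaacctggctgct

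The E-box of Cldn4 began 14 bases before the annotated start and that of F11r began 122 bases before it. Cldn7 and Ocln each held 2 E-boxes before the more 3′ of their 2 annotated starts, and 2.06% of all windows held at least 2. For Cldn7 they began 97 bases (chr11:69965312-69965341, plus strand) and 57 bases (chr11:69965352-69965381) before that start, and for Ocln 213 bases (chr13:100552694-100552723, minus strand) and 68 bases (chr13:100552549-100552578) before it. These sites are given in 30 bases each so that their flanks can be compared, with the E-box in capitals. A match is a description of the letters and not a shown site of binding.
Cldn7, first: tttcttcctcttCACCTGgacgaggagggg
Cldn7, second: agacttccggttCAGGTGagtgtcccttca
Ocln, first: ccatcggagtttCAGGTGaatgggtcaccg
Ocln, second: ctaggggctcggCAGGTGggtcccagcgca

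Values are signals on the log2 scale as the authors normalised them, so that a difference of 1 is a doubling of signal, and each gene was read by its brightest probeset. The median signal of an array lay between 5.63 and 5.76. Signals of different genes are not compared, since probes differ in brightness. Whole tissue was measured, so that fewer cells of a type and less RNA per cell cannot be told apart. Several arrays stood apart from the others. Control skin 3 and p53 tumor 7 had the largest excess of 3′ over 5′ actin signal, a sign of RNA wear, at 1.33 and 1.67, against 0.21 to 0.68 elsewhere. Casein beta (Csn2), a milk protein gene, had a signal of 8.75 to 13.67 in all 3 poorly differentiated tumors, 10.80 in the undifferentiated p53 tumor 3 and 9.83 in control skin 3, against 3.10 to 4.47 on the other 11 arrays. Among pairs of arrays of the same group (control skin, p53 or pRbp53 tumors), control skins 2 and 4 differed least. The SD of their log2 differences was 0.218, and that of the next lowest such pair 0.414. Keratin 14, the keratin of basal epidermal cells, was at 12.90 to 13.18 in control skin but at 4.41 in the poorly differentiated p53 tumor 5 and between 4.36 and 6.99 in the 6 undifferentiated or spindle tumors. Skeletal muscle markers were lower in tumors for 8 of 8 genes and cornified epidermis markers for 11 of 11.

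The first comparison asked which junction genes set the 12 carcinomas apart from the 4 control skins. Only Ocln passed the test among the 9 genes, and none was higher. Ocln had signals of 7.49, 8.05, 7.20 and 8.26 in control skins 1 to 4 and a lowest, median and highest signal of 3.55, 4.08 and 8.39 over the tumors. Across 12 tumors and 4 control skins it fell by 2.78 ± 0.85 log2 units, with the SE (limma, adjusted p = 0.0413), although p53 tumors 2 and 5 were within or just above the range of control skin. Its other probeset fell by 2.37 ± 0.48 (limma adjusted p = 0.00361).

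Cldn1, the claudin whose loss breaks the epidermal barrier in newborn mice, had signals of 10.03 to 10.65 in control skin, and a lowest, median and highest signal of 3.77, 6.67 and 10.58 in tumors. Its brightest probeset differed by -3.72 ± 1.19 and missed the threshold (limma adjusted p = 0.0504), while a second probeset passed it (-2.58 ± 0.78, adjusted p = 0.0390). The remaining pair of Cldn1 probesets lay between 2.61 and 4.17 on every array. Cldn4 (-2.18 ± 0.93, adjusted p = 0.144), Cldn8 (-1.92 ± 0.76, adjusted p = 0.112) and Cldn7 (1.89 ± 1.27, adjusted p = 0.376) did not pass. The other 4 genes, Cldn3, Cldn5, F11r and Tjp1, differed by between -0.24 and 0.11. None of the 9 had tumors and control skin that did not overlap, against 9.39% of all genes. Of all genes, 9.17% were called lower in tumors and 7.57% higher, and the 9 genes' median difference was -0.24 against 0.06 over all genes. The call for Ocln was lost without any 1 of 12 arrays, the 4 control skins, p53 tumors 1, 3 and 6 and all 5 pRbp53 tumors among them (limma adjusted p from 0.0554 to 0.121), and the count of members called lower rose to 3 without p53 tumor 2 and to 2 without p53 tumor 4, 5 or 7. With control skin 3 and p53 tumor 7, the arrays of largest actin excess, both left out, Ocln lost its call (limma adjusted p = 0.0875) and Cldn1 gained one (0.0449).

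**Figure D1:**
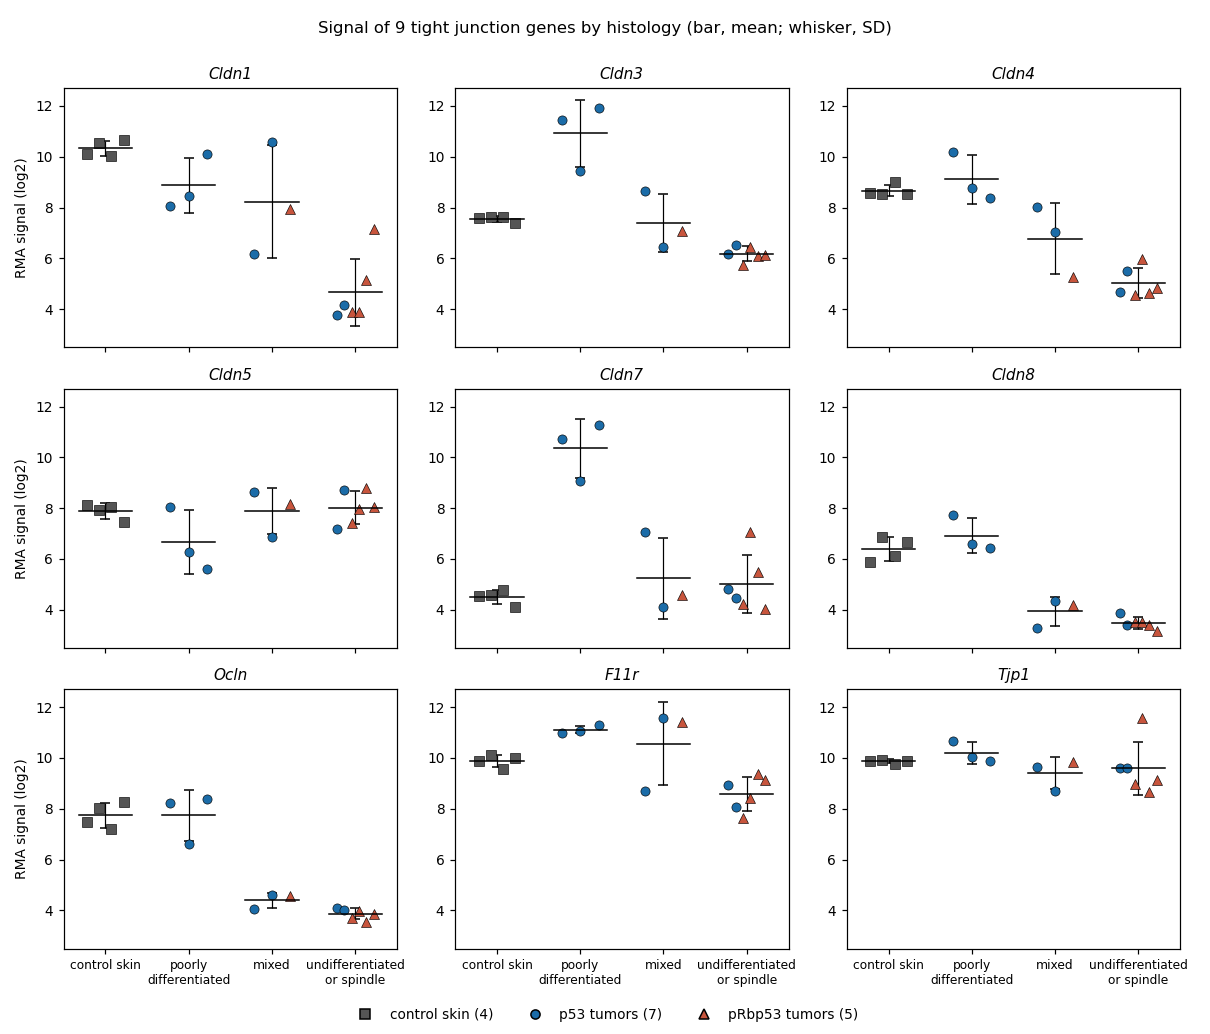
Signal (log2) of each of the 9 genes on all 16 arrays, by histology, with squares for control skin, circles for p53 tumors and triangles for pRbp53 tumors; the bar is the mean and the whisker the SD. Cldn3 and Cldn7 were highest in the 3 poorly differentiated tumors, Ocln and Cldn8 were low in all mixed, undifferentiated and spindle tumors, and the histological groups of Cldn5 and Tjp1 overlapped.

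Much of the spread among tumors followed histology, as the plot of signals by histology shows. The 6 undifferentiated or spindle tumors were set against the 3 poorly differentiated ones in a fit of those 9 arrays. Of the 9 genes, 7 fell with grade (Cldn1, Cldn3, Cldn4, Cldn7, Cldn8, Ocln and F11r) and none rose, where 4.64% of all genes were called lower and 4.49% higher. The median difference of the 9 was -3.87, against 0.02 over all genes. The study itself chose claudins 1, 4 and 8 for this pattern in a tumor set that held these arrays, so that their direction here is not independent evidence. For the same 7 genes the 2 groups did not overlap, which held for 15.9% of all genes in either direction.

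Cldn7 and Cldn3 changed most. Cldn7, a claudin found along the lateral membrane of many epithelia, had signals of 10.72, 9.06 and 11.28 in the poorly differentiated p53 tumors 2, 4 and 5. In the undifferentiated p53 tumor 3 and the spindle p53 tumor 6 it was at 4.82 and 4.45, and in the spindle pRbp53 tumors 1, 2, 3 and 5 at 4.22, 7.06, 5.48 and 4.01. All 6 lay below the 3, and pRbp53 tumor 2 was the highest of them. Cldn7 fell by 5.34 ± 0.72 (SE, n = 6 and 3, limma adjusted p = 0.00352).

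Cldn3, a sealing claudin of simple and glandular epithelia, was at 11.43, 9.43 and 11.91 in the same 3 poorly differentiated tumors. The undifferentiated and spindle tumors lay within 5.75 to 6.54, a range of 0.79. The fall was 4.74 ± 0.47 (limma adjusted p = 0.000759), and the other 3 Cldn3 probesets fell by between 5.31 and 5.44.

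Cldn1 was at 8.05, 8.45 and 10.12 in the poorly differentiated tumors. Its signals were 3.77 and 4.15 in p53 tumors 3 and 6, and 3.88, 3.90, 5.14 and 7.16 in pRbp53 tumors 1, 2, 3 and 5. The spindle pRbp53 tumor 5 came within 0.9 of the lowest poorly differentiated tumor, and the other 5 were lower by more. Cldn1 fell by 4.21 ± 0.80 (limma adjusted p = 0.0155). With the actin 3′ excess as a covariate the difference was -3.73 and lost its call (limma adjusted p = 0.091).

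Cldn4, which bears on paracellular chloride permeability in kidney cells, stood at 10.18, 8.75 and 8.39 in p53 tumors 2, 4 and 5. The other group ran from 4.57 to 5.97 with a median of 4.75. Cldn4 fell by 4.08 ± 0.45 (limma adjusted p = 0.00119). Cldn8, best known from the distal nephron, had signals of 7.72, 6.59 and 6.45 against 3.17 to 3.88 in the undifferentiated or spindle group, and fell by 3.44 ± 0.28 (limma adjusted p = 0.000224). Those low values lay under the median of every array, where a weak signal and none were not told apart.

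Ocln was at 8.24, 6.59 and 8.39 in the poorly differentiated tumors and at 3.55 to 4.10 in the 6 others. It fell by 3.87 ± 0.36 (limma adjusted p = 0.000523), and its second probeset fell by 2.14 ± 0.28. The 6 low Ocln values lay under the median of every array. So did the low values of Cldn1 apart from pRbp53 tumor 5, and those of Cldn4 and Cldn7 apart from pRbp53 tumor 2. A weak signal and none were not told apart there, which limits the falls that could be measured. F11r kept a signal well above the array median in every tumor: it was at 10.99, 11.07 and 11.28 in the poorly differentiated tumors and at 7.64 to 9.38 in the undifferentiated or spindle tumors. F11r fell by 2.53 ± 0.37 (limma adjusted p = 0.00496). The weaker F11r probeset, at 4.59 to 5.07 on all 16 arrays, differed by 0.00 ± 0.10.

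Tjp1 and Cldn5 did not pass. Tjp1 was at 10.67, 10.02 and 9.87 in the poorly differentiated tumors and at 8.66 to 11.57 in the other group, with a difference of -0.60 ± 0.57 (limma adjusted p = 0.617). The highest Tjp1 signal of all 16 arrays was that of the spindle pRbp53 tumor 2. Cldn5 was at 8.05, 6.28 and 5.62 against 7.19 to 8.78, with a difference of 1.36 ± 0.55 (limma adjusted p = 0.189). Without p53 tumor 2 that difference was 2.06 and passed (limma adjusted p = 0.0445).

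Each of the 7 falls passed the test without any 1 of the 9 arrays, with adjusted p up to 0.0457 for Cldn1 and up to 0.0212 for the rest. By the methods' t-test with unequal variances (the methods do not state a form, and this one was chosen here), only F11r kept its call, and the adjusted p was 0.0987 for Cldn1, 0.213 for Cldn3, 0.135 for Cldn4, 0.0818 for Cldn7, 0.148 for Cldn8 and 0.199 for Ocln. Genotype was not balanced between the groups, since all 3 poorly differentiated tumors were p53 tumors. Within p53 tumors alone (2 undifferentiated or spindle against 3), the 7 differences ran from -5.71 for Cldn7 to -2.62 for F11r, and 4 passed (Cldn1, Cldn7, Cldn8 and F11r), with adjusted p of 0.0768 for Cldn3, 0.0628 for Cldn4 and 0.0692 for Ocln.

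Other measures moved with grade. The mammary secretory list (7 genes, most of them of milk proteins) had a mean signal of 6.96 to 10.61 in the poorly differentiated tumors and 4.05 to 7.69 in the undifferentiated or spindle tumors, and 3 of its 7 genes fell. With the Csn2 signal as a covariate, a fit added after the data were seen, the 7 differences lay between -4.88 (Cldn7) and -2.24 (F11r) and 4 passed (Cldn3, Cldn4, Cldn8 and Ocln), while Cldn1, Cldn7 and F11r had adjusted p of 0.138, 0.0921 and 0.118. The undifferentiated p53 tumor 3 had Csn2 at 10.80 and keratin 8, a keratin of simple epithelia, at 11.41, and its signals of Cldn1, Cldn3, Cldn4, Cldn7, Cldn8 and Ocln (3.77, 6.16, 4.67, 4.82, 3.88 and 4.10) were each under all 3 poorly differentiated tumors. Fibroblast markers, with a mean signal of 9.14 to 11.04 in the poorly differentiated and 12.46 to 13.83 in the undifferentiated or spindle tumors, rose for 6 of 7 genes. Leukocyte markers (6.56 to 7.02 and 8.10 to 8.75) rose for 4 of 6. Of the basal keratinocyte markers, 1 of 7 fell and the list means ran from 6.19 to 10.59 and from 5.31 to 7.40. The part of these cell types in the differences was not tested. Csn2 was high in all 3 poorly differentiated tumors and, among the undifferentiated or spindle tumors, only in p53 tumor 3. The Csn2 fit thus rests on that tumor and cannot tell Csn2 from grade. It called 826 of 45037 probesets, against 3326 without the covariate.

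**Figure D2:**
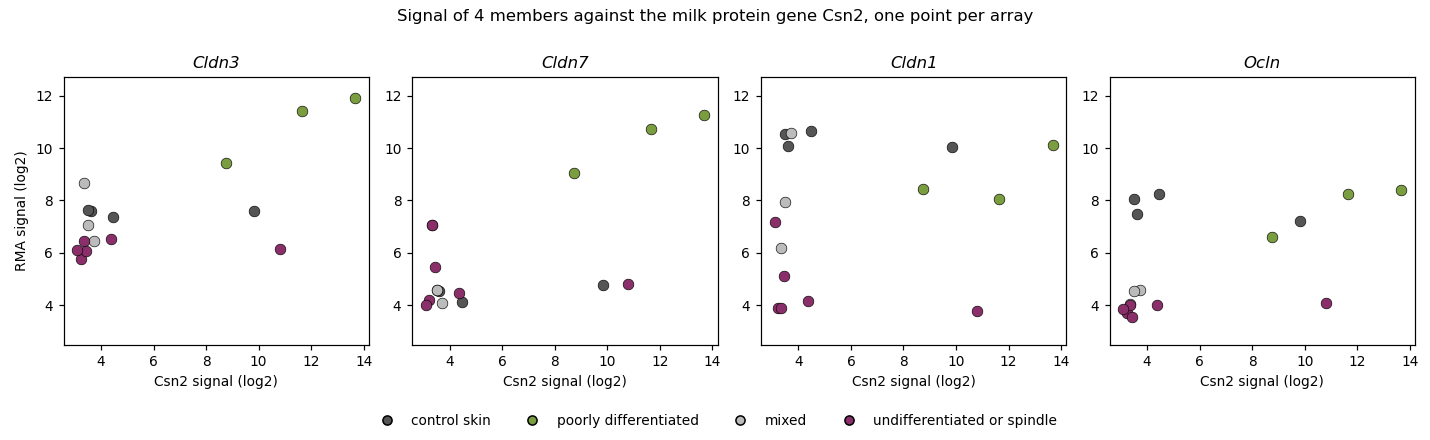
Signal (log2) of Cldn3, Cldn7, Cldn1 and Ocln on the vertical axes against the signal of the milk protein gene Csn2 on the horizontal axis, 1 point for each of the 16 arrays, coloured by histology. The undifferentiated or spindle tumor at a Csn2 signal of 10.80 lies low for all 4 genes, and the control skin at 9.83 lies with the other control skins.

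Each histological group was then set against control skin, in 1 fit of the 16 arrays with 4 groups. The 3 comparisons share the 4 control skins. In poorly differentiated tumors, Cldn7 and Cldn3 were higher than in control skin, and no brightest probeset was lower (6.38% of all genes were called higher and 8.4% lower). In undifferentiated or spindle tumors, Ocln, Cldn1, Cldn4, Cldn8 and Cldn3 were lower and none was higher (12.5% and 11.6% of all genes). Basal keratinocyte markers fell in the same comparison for 6 of 7 genes (median difference -7.52, list means of 11.40 to 11.56 in control skin and 5.31 to 7.40 in these tumors) and cornified epidermis markers for 11 of 11 (median difference -7.00, list means of 10.79 to 10.97 and 4.46 to 4.59), and their part in the falls was not tested. In mixed tumors, Ocln and Cldn8 were lower and none was higher (7.26% and 4.16%). The medians of the 9 differences were 0.44, -1.38 and -0.46, against 0.04, 0.05 and 0.08 over all genes.

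Cldn7 was at 4.55, 4.59, 4.78 and 4.11 in control skins 1 to 4, under the array median. Its mean in poorly differentiated tumors was 10.35 ± 1.15 (SD, n = 3), a rise of 5.84 ± 0.78 log2 units (limma SE, adjusted p = 0.000188). Simple epithelium markers (Krt7, Krt8, Krt18 and Krt19) had a mean signal of 10.45 to 11.13 in the poorly differentiated tumors and 4.96 to 5.88 in control skin, with 3 of 4 higher, and 2 of the 7 mammary secretory genes were higher, from list means of 4.05 to 6.77 in control skin. The part of either in the rise of Cldn7 and Cldn3 was not tested. By the methods' t-test with unequal variances neither rise passed (adjusted p = 0.128 for Cldn7 and 0.255 for Cldn3). In the undifferentiated or spindle group the Cldn7 mean was 5.01 ± 1.13 (SD, n = 6), and the difference from control skin of 0.50 ± 0.66 did not pass (adjusted p = 0.670). The order of the Cldn7 means was poorly differentiated, mixed, undifferentiated or spindle and control skin, and the last 3 overlapped.

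Cldn3 lay between 7.39 and 7.64 in the 4 control skins. It rose by 3.36 ± 0.52 in poorly differentiated tumors (limma adjusted p = 0.000760) and fell by 1.38 ± 0.44 in undifferentiated or spindle tumors (adjusted p = 0.0422). All 6 of those tumors were under every control skin and all 3 poorly differentiated tumors above every control skin. The fall lost its call without any 1 of 10 arrays (adjusted p from 0.0525 to 0.0938). These were the 4 control skins and the 6 undifferentiated or spindle tumors. The call was also lost without both control skin 3 and p53 tumor 7, the arrays of largest actin excess (0.0685). It was lost too with control skins 2 and 4 averaged (0.0834) or the 5 arrays of high Csn2 left out (0.0546). These last 2 fits were added after the data were seen. All 4 Cldn3 probesets passed in each direction.

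Cldn1, Cldn4, Cldn8 and Ocln had the opposite balance, with poorly differentiated tumors not called different from control skin and undifferentiated or spindle tumors lower. Cldn1 fell by 5.66 ± 0.80 in the latter (limma adjusted p = 0.000202) and Ocln by 3.88 ± 0.31 (adjusted p = 8.26e-07). Cldn4 was at 8.583, 8.552, 8.995 and 8.548 in control skin and fell by 3.64 ± 0.47 (adjusted p = 9.94e-05). Cldn8 was at 5.86, 6.87, 6.13 and 6.67 and fell by 2.90 ± 0.28 (adjusted p = 6.23e-06). In poorly differentiated tumors the same genes differed from control skin by -1.45 ± 0.94 (Cldn1), 0.44 ± 0.56 (Cldn4), 0.54 ± 0.33 (Cldn8) and -0.01 ± 0.37 (Ocln). The weaker Ocln probeset fell there by 0.83 ± 0.25 (adjusted p = 0.0463), so that the 2 probesets of Ocln disagreed.

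F11r was between 9.56 and 10.10 in control skin and passed in no group, with differences of 1.24 ± 0.57 in poorly differentiated, 0.69 ± 0.57 in mixed and -1.29 ± 0.48 in undifferentiated or spindle tumors (adjusted p = 0.198, 0.523 and 0.0793). Without p53 tumor 1 all 3 passed, the mixed difference then being 1.63 (adjusted p = 0.0196) and the others as before (0.0300 and 0.00623). By the methods' t-test with unequal variances F11r passed in poorly differentiated (adjusted p = 0.0271) and in undifferentiated or spindle tumors (0.0273). Tjp1 was at 9.88, 9.94, 9.76 and 9.88 in control skin and differed by no more than 0.46 in any group.

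**Figure D3:**
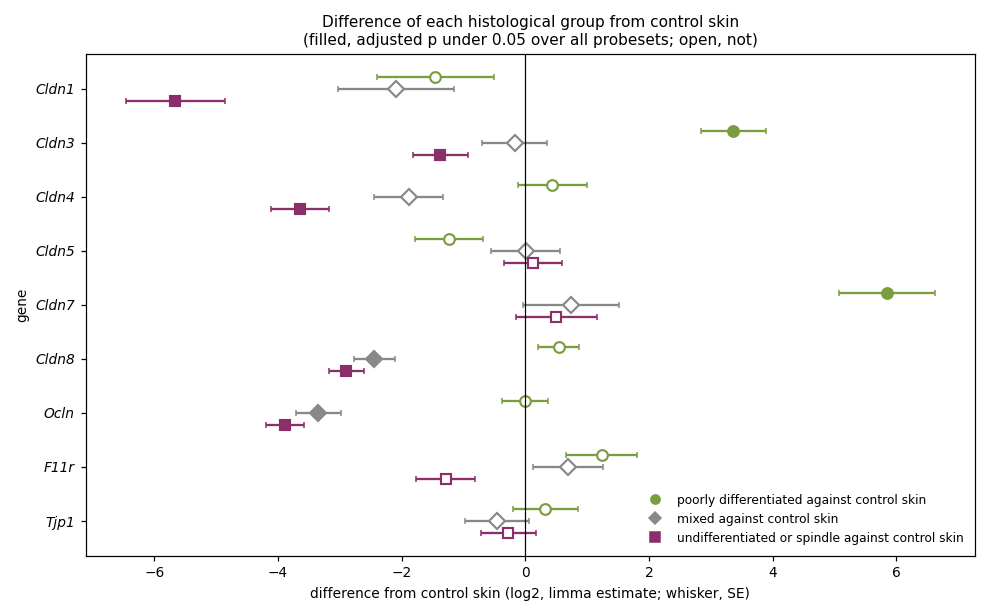
Difference of each histological group from control skin (log2, limma estimate with SE) for the 9 genes; filled symbols passed at an adjusted p under 0.05 and open ones did not. Cldn3 is filled on both sides of 0, Ocln and Cldn8 are filled in the mixed and in the undifferentiated or spindle group, and Cldn5, F11r and Tjp1 are open throughout.

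The 3 mixed tumors did not treat the genes alike. Ocln was at 4.06, 4.59 and 4.56 in p53 tumors 1 and 7 and pRbp53 tumor 4, and fell from control skin by 3.35 ± 0.37 (limma adjusted p = 3.7e-05). Cldn8 was at 3.29, 4.35 and 4.19 and fell by 2.44 ± 0.33 (adjusted p = 0.000297), which did not pass by the methods' t-test with unequal variances (0.144). For both genes every mixed tumor lay under all control skins and all poorly differentiated tumors. Cldn4 was at 8.01, 7.05 and 5.28, also under every control skin, and missed the threshold (-1.89 ± 0.56, adjusted p = 0.0526). Without p53 tumor 1, 2 or 5 or pRbp53 tumor 2 it passed, with adjusted p from 0.0134 to 0.0493.

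The other members spread widely among the same 3 tumors. Cldn1 was at 10.58 in p53 tumor 7, within the range of control skin, at 7.95 in pRbp53 tumor 4 and at 6.17 in p53 tumor 1. Its difference from control skin of -2.09 ± 0.94 did not pass (adjusted p = 0.205), but that without p53 tumor 7 did (-3.27, adjusted p = 0.0327). Cldn3 and Cldn7 ran the other way, at 8.65 and 7.06 in p53 tumor 1 but at 6.45 and 4.11 in p53 tumor 7. F11r was at 11.59 in p53 tumor 7 and 11.43 in pRbp53 tumor 4, the highest signals of the series, and at 8.69 in p53 tumor 1. The mixed tumors had keratin 14 signals of 12.05, 13.59 and 9.32, and Epcam, an epithelial adhesion molecule gene, at 9.87, 9.77 and 9.43, against 10.04 to 11.14 in control skin and 4.81 to 6.87 in the undifferentiated or spindle tumors.

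The comparison of genotypes asked whether loss of pRb beside p53 altered these genes. None of the 9 passed at the adjusted p of 0.1 that the study used for this comparison, where 0.077% of all genes were called higher and 0.0824% lower. At an unadjusted p under 0.05, 2 of the 9 were lower in pRbp53 tumors, Cldn4 (-2.45 ± 0.83, limma adjusted p = 0.380) and Cldn3 (-2.36 ± 1.02, adjusted p = 0.513). Over all probesets, 4184 of 45037 had an unadjusted p under 0.05 in this comparison, in either direction. None passed by the methods' t-test with unequal variances either. Cldn4 had a median of 8.01 over 7 p53 tumors (lowest 4.67, highest 10.18) and signals of 4.57, 5.97, 4.64, 5.28 and 4.82 in pRbp53 tumors 1 to 5. Cldn3 had a median of 8.65 over p53 tumors (6.16 to 11.91) and signals of 5.75, 6.46, 6.08, 7.07 and 6.12. The groups overlapped for both, and 4 of the 5 pRbp53 tumors were spindle cell carcinomas. With histology as a covariate the 9 differences lay between -0.81 (Cldn4) and 0.56 (Cldn1), and within the undifferentiated or spindle tumors alone (4 pRbp53 against 2 p53) between -0.29 (Ocln) and 1.06 (Cldn1). In those fits Cldn3 differed by -0.32 and -0.25.

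Cldn5 was set beside endothelial markers, since it is an endothelial claudin. It was at 8.13, 7.93, 8.05 and 7.44 in control skin and ran from 5.62 to 8.78 in tumors, lowest in the poorly differentiated p53 tumors 5 and 4 and highest in the spindle tumors pRbp53 3 and p53 6. The mean of the 12 endothelial markers was 6.33 to 6.70 in poorly differentiated and 6.77 to 7.72 in undifferentiated or spindle tumors, and 2 of 12 rose with grade. Over the 16 arrays, Cldn5 and that mean had a Pearson r of 0.554 (permutation p = 0.0253) and a Spearman rho of 0.482 (permutation p = 0.0602), and over the 12 tumors an r of 0.545 (permutation p = 0.0673) and a rho of 0.448 (permutation p = 0.147). After Benjamini-Hochberg adjustment over these 4 tests none passed (adjusted p from 0.0897 to 0.147), all two-sided. Without the 2 arrays farthest from the median of the marker mean, r was 0.446 over 14 arrays (permutation p = 0.110) and 0.598 over 10 tumors (permutation p = 0.0705).

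Other genes of the junction were read from lists. Of 14 other claudins measured, none passed by grade, and their median difference was -0.02. Their mean signal was 5.26 to 5.47 in poorly differentiated and 4.82 to 5.21 in undifferentiated or spindle tumors, under the median of every array. A weak signal and none were not told apart there, so that a fall of weak genes could be missed. The claudin of this list that passed elsewhere was Cldn23, at 9.62 to 10.06 in control skin. It fell by 2.28 ± 0.59 in poorly differentiated tumors (limma adjusted p = 0.0222), by 4.75 ± 0.50 in undifferentiated or spindle tumors (adjusted p = 1.33e-05) and by 4.68 ± 0.59 in mixed tumors (adjusted p = 0.000143). Its largest tumor signals were 8.55 and 8.29, in the poorly differentiated p53 tumors 4 and 2, and the poorly differentiated p53 tumor 5 was at 5.71.

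Of 10 other transmembrane proteins of the junction, 6 fell with grade and 1 rose (median difference -1.92). Marveld3 fell by 5.74 ± 0.43 (limma adjusted p = 0.000144) and Marveld2, which encodes tricellulin, the protein of the corners where cells meet, by 4.37 ± 0.20 (adjusted p = 9.19e-06). Both belong with occludin to the MARVEL family. Marveld2 was at 7.91, 7.40 and 8.22 in the poorly differentiated tumors, at 3.29 to 3.91 in the 6 others, and at 3.81, 3.75 and 3.70 in the mixed tumors, where it was 3.66 ± 0.20 under control skin (adjusted p = 2.21e-08). The Marveld2 signals of the mixed tumors lay within the range of the undifferentiated or spindle tumors. All of these lay under the median of every array, where a weak signal and none were not told apart. Lsr and Ildr1, angulins that recruit tricellulin, fell by 2.98 ± 0.30 and 2.77 ± 0.34, and Cxadr, which encodes a virus receptor that lies at the junction, by 3.79 ± 0.88, with Crb3 as the sixth (-1.08 ± 0.18).

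Jam3, a paralog of F11r, was the gene that rose. Its signals were 5.72, 5.51 and 5.56 in p53 tumors 2, 4 and 5 and 6.83 to 8.51 in the undifferentiated or spindle tumors, a rise of 2.17 ± 0.31 (limma adjusted p = 0.00457). F11r and Jam3 thus differed in opposite directions by grade.

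Of 15 scaffold and polarity proteins, 6 fell with grade and none rose (median difference -1.13). The largest falls were those of Patj (3.16 ± 0.25), Pard6b (3.05 ± 0.18), Tjp3, which encodes ZO-3 (2.94 ± 0.37), and Cgn, which encodes cingulin (2.68 ± 0.28), with adjusted p from 3.95e-05 to 0.00244. Cgnl1 and Prkcz were the others. Tjp3 was at 6.89 to 8.45 in the poorly differentiated tumors and at 4.10 to 5.19 in the 6 others, whereas Tjp1, its paralog, had groups that overlapped. Against control skin, Magi3 rose both in poorly differentiated (2.15 ± 0.33, adjusted p = 0.000738) and in undifferentiated or spindle tumors (1.02 ± 0.28, adjusted p = 0.0205), and 8 of the 15 were lower in the latter.

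Beyond the tight junction, 8 of 11 adherens junction and desmosome genes fell with grade (median difference -5.02) and none rose. The study itself chose Cdh1, Dsp, Jup, Pkp1, Pkp3, Dsc2 and Dsc3 as reduced in a tumor set that held these arrays. Their direction here is therefore not independent evidence. Of 10 epithelial transcription and splicing factors, 8 fell and none rose, led by Esrp1 (7.22 ± 0.30), Ehf (6.93 ± 0.32), Grhl1 (5.59 ± 0.14) and Esrp2 (4.76 ± 0.22), with adjusted p from 5.56e-07 to 9.19e-06. Of these, Esrp1 and Esrp2 are splicing factors of epithelial cells and Ehf and Grhl1 are transcription factors.

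Of 6 repressors of epithelial genes, 4 rose with grade and none fell (median difference 2.86): Zeb1 (3.27 ± 0.30), Twist2 (3.16 ± 0.59), Snai1 (3.02 ± 0.51) and Zeb2 (2.69 ± 0.45), with limma adjusted p from 0.000498 to 0.0145. Snai2 (0.22 ± 1.11) and Twist1 (1.90 ± 0.72) did not pass. The study itself chose Snai1, Zeb1 and Zeb2 for this rise in a tumor set that held these arrays, so that their direction is not independent evidence. Zeb1 was at 6.84, 7.22 and 6.48 in the poorly differentiated tumors, at 8.88 to 9.21 in control skin and at 9.26 to 10.58 in the undifferentiated or spindle tumors. Against control skin, Zeb1 fell by 2.16, Zeb2 by 2.13 and Twist2 by 3.06 in poorly differentiated tumors, and Snai1 alone was higher in undifferentiated or spindle tumors (3.12 ± 0.70, adjusted p = 0.00618). Fibroblasts also express several of these repressors, and the fibroblast markers given above moved the same way by grade. Vim, a marker of that list, is among the genes the study associates with epithelial-mesenchymal transition, so that its rise does not single out fibroblasts. The part of fibroblasts in the rise of the repressors was not tested.

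**Figure D4:**
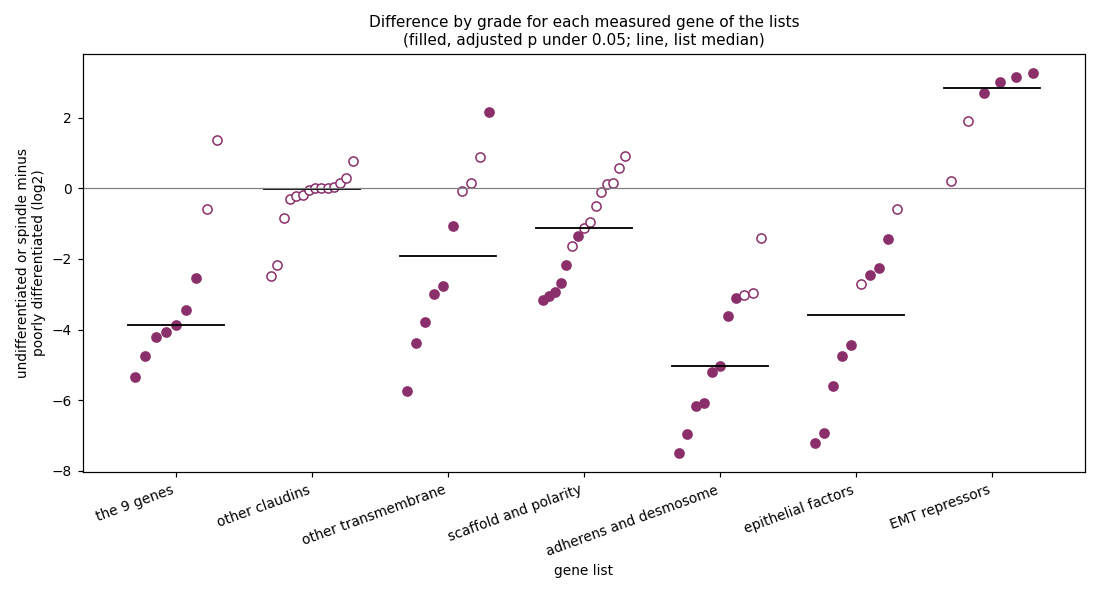
Difference by grade (undifferentiated or spindle minus poorly differentiated, log2) for each measured gene of 7 lists, 1 point a gene; filled points passed at an adjusted p under 0.05 and the line is the list median. The 9 genes have a median of -3.87, the other claudins have a median of -0.02 with none filled, and 4 of 6 repressors of epithelial genes are filled above 0. The mean signal of the other claudins lay under the array median.

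The genes whose pattern over the 12 tumors was most like each member were sought among 9096 genes of above-median signal. The nearest to Ocln was Ceacam1 (Pearson r 0.973), an epithelial adhesion molecule gene, and Bcl2l14 and Sox10 came next for Ocln (0.965 and 0.963) and also led the list of Cldn8 (Sox10 0.956, Bcl2l14 0.953, then Erbb2 0.952). Cldn7 had Rusf1 (0.956), Cldn3 (0.942) and Zfand6 (0.933), and Cldn3 had Noxo1 (0.955), Rbfa (0.952) and Rusf1 (0.940). Cldn4 was nearest to Lad1 (0.918), Cldn1 to Pex26 (0.934), F11r to Fhdc1 (0.947), Cldn5 to Eloa (0.960) and Tjp1 to Cenpf (0.891). The tumors fall into histological groups that share these levels, so that the values are a description over 12 tumors with no test.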

How the data were processed

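RNA of 4 control skins and 12 tumors was hybridised to Affymetrix MOE430 2.0 arrays. The values are log2 signals per probeset that the authors made by RMA, per the labels; its version is not given in the sources used here. No probe-level data or detection calls were used, and other arrays of the study were not analysed here. Of 45101 probesets, 64 controls were left out. Of the 45037 tested, 34945 had 1 gene symbol in the platform annotation, 932 several and 9160 none. Differences were fitted with limma 3.58.1 (R 4.3.3) and adjusted by Benjamini-Hochberg over all 45037 probesets, at 0.05, or 0.1 between genotypes. The fit was tested on simulated data. A gene was read by its probeset of highest mean signal. All members were named. From the lists, up to 4 genes in each direction were named, by size among those that passed, and other genes were named after their values were seen. The members and lists were chosen with earlier results of these data known. Replicate numbers shared between groups did not pair the arrays: of 13 same-numbered pairs, 3 had deviations that correlated above 0.1. Array number limits precision. List genes without a probeset of 1 symbol, among them Cldn17, Cldn20 and Cldn24, were not analysed here. Figures used matplotlib 3.10.9, and promoter sequences and starts are from RefSeq (GRCm38.p6).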

Additional observations from a re-analysis of the deposited data

Results flagged for a closer look

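For 4 members the difference from control skin pointed one way in poorly differentiated tumors and the other way in undifferentiated or spindle tumors, and the test between the tumor groups passed. These were Cldn3 (-4.74 on the log2 scale between the tumor groups), Cldn4 (-4.08), Cldn8 (-3.44) and F11r (-2.53). Only for Cldn3 did both differences from control skin pass on their own.

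Single arrays stood far from the rest of their group for 3 of the 36 gene and group combinations examined, and chance flags about 1 in 20. Tjp1 in pRbp53 tumor 2 was at 11.57, above the other undifferentiated or spindle tumors. Cldn4 in control skin 3, 1 of the arrays with the most 3′ actin excess, was at 8.995, and Cldn3 in control skin 4 was at 7.39, both within 0.5 of the other control skins.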

How the results depend on the processing

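Each member's difference was recomputed under 22 other settings and without each array in turn. Of 1491 such values, 1348 kept their direction and their side of the threshold, 56 lost the call, 38 gained one and 49 changed sign. None of the 49 passed the threshold. The poorly differentiated and the mixed groups held 3 tumors each, and no detection call separates a weak signal from none for genes under the array median, such as Cldn8.

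Members called lower in tumors against control skin (1 in the report) were 2 under quantile normalization, median centring or a trended robust fit, 4 with array weights or the methods' t-test in its unequal-variance form, and 0 with the actin 3′ excess as a covariate or at an adjusted p of 0.01. Over all probesets, calls in either direction went from 5949 of 45037 to 14405 with array weights, 8987 with that t-test and 3057 at 0.01. Members called lower were 0 for p53 tumors alone and 4 for pRbp53 tumors alone. In fits added after the data were seen they were 0 with control skins 2 and 4 averaged and 3 without the 5 arrays of high Csn2. Without single arrays the count ran from 0 to 3. By grade, members called lower (7) were 1 under the methods' t-test (F11r), 4 among p53 tumors only and 4 with Csn2 as covariate. Probesets called by grade went from 3326 of 45037 to 825, 827 and 826 in the same order. Cldn1 also lost its call by grade with the actin 3′ excess as a covariate (limma adjusted p = 0.091). By grade, members called higher ran from 0 to 1 without single arrays (Cldn5 without p53 tumor 2). In poorly differentiated tumors against control skin, the methods' t-test called 1 higher, which was F11r (adjusted p = 0.0271) in place of Cldn3 (0.255) and Cldn7 (0.128), and those called lower ran from 0 to 1 without single arrays (Cldn5 without p53 tumor 2). Among brighter probesets only, the 1 called lower over all tumors was Cldn1 (adjusted p = 0.0326), since Ocln was not tested there, and 3 were called lower in undifferentiated or spindle tumors, where Cldn8 and Ocln were not tested, and 1 in mixed tumors, which was Cldn4 (adjusted p = 0.0382). The methods' t-test called 1 lower in mixed tumors, which was Ocln, with Cldn8 lost (0.144). Over all probesets that t-test called 378 in mixed tumors, against 3817 in the main fit. In poorly differentiated tumors it called 1288, against 5264. In mixed tumors the members called higher ran from 0 to 1 (F11r without p53 tumor 1).

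With the replicate number as a block, no member was called by grade (0 of 7, adjusted p from 0.0575 to 0.220), nor was any other probeset, and 1 was called lower in poorly differentiated tumors (Cldn1). Over all tumors the block ended the call of Ocln (0.0781) and called Cldn1 (-4.41, 0.0109), and in mixed tumors it added Cldn1 (-3.31, 0.0057). By grade the 7 differences with the block still ran from -5.46 for Cldn7 to -2.38 for F11r. Few replicate numbers occurred in both grade groups, so that the block left few arrays to estimate the spread. The arrays were not treated as paired by number in the main fits, and the cause of the changes was not tested. The block also turned Tjp1 to 0.014 (tumors) and 0.067 (grade), Cldn5 to -0.04 (undifferentiated or spindle) and, in mixed tumors, Cldn3 to 0.67 and Tjp1 to 0.087.

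The other changes of sign concerned members that had not passed. Against control skin over all tumors, Cldn3 became -0.18 with array weights, -0.20 with the median probeset, -0.90 without the high Csn2 arrays and -1.27 for pRbp53 tumors alone. Cldn5 became 0.06, 0.24 and 0.18 with array weights, without those arrays and for pRbp53 tumors alone. F11r became 0.093 with the actin covariate and 0.21 for p53 tumors alone. Between genotypes, Cldn5 and Tjp1 became -0.003 and 0.31 without the high Csn2 arrays. With histology as a covariate Cldn1, Cldn7, Tjp1 and F11r became 0.56, 0.031, 0.21 and 0.52, and within undifferentiated or spindle tumors Cldn1, Cldn7 and F11r became 1.06, 0.55 and 0.14. Ocln in poorly differentiated tumors became 0.024 with median centring and 0.13 with control skins 2 and 4 averaged. Cldn5 in undifferentiated or spindle tumors became -0.10 with the actin covariate. In mixed tumors, Cldn3 became 0.088 with array weights and 0.32 without control skin 3 and p53 tumor 7, and Cldn5 became -0.062 with the averaged control skins. The cause was not tested.

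Without single arrays the differences that changed sign ran as follows. In mixed tumors Cldn3 ran from -0.80 to 0.30, Cldn5 from -0.37 to 0.52 and Cldn7 from -0.17 to 1.30. Over all tumors Cldn3 ran from -0.28 to 0.28 and F11r from -0.33 to 0.026. In poorly differentiated tumors Cldn4 ran from -0.10 to 0.80 and Ocln from -0.33 to 0.57, Cldn5 in undifferentiated or spindle tumors from -0.024 to 0.29, and Tjp1 between genotypes from -0.58 to 0.15. Probesets called between genotypes (89) ran from 47 to 216.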
